A study of Homo sapiens with 4 samples.

Results

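Binding of the RNA-binding protein LARP4 was examined on the mRNAs of 7 abundant chaperone genes that serve different compartments of the cell: HSPA8, HSP90AA1 and HSP90AB1 of the cytosol, HSPA5 of the endoplasmic reticulum (ER), and HSPA9, HSPD1 and HSPE1 of the mitochondrion. The genes were taken by position. A cluster, which is a stretch of stranded read coverage listed by the authors, belonged to a gene when it overlapped a fixed hg19 window around that gene on the gene's strand. The windows held 91 of 171755 clusters in replicate 1 and 107 of 191899 in replicate 2. They also held 4 of the 7153 regions in the authors' series-wide list.

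The material was HEK293, a human embryonic kidney cell line, with 2 LARP4 eCLIP samples and 2 size-matched input samples. In enhanced crosslinking and immunoprecipitation (eCLIP), ultraviolet light fixes proteins to the RNA they touch and an antibody then recovers the protein with its RNA fragments. Here each biological replicate was irradiated at 254 nm with 400 mJ/cm2, and the antibody was Bethyl A303-900A. The inputs had no antibody step, no sample had a drug or a genetic change, and the inputs are present here only through the folds.

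Chaperones bind unfolded or partly folded proteins and help them reach or keep their structure. The HSP70 family (HSPA8, HSPA5, HSPA9) grips short exposed stretches in a cycle driven by ATP, the HSP90 family (HSP90AA1, HSP90AB1) acts late on clients such as kinases and steroid receptors, and HSPD1 with its lid HSPE1 forms a closed folding chamber. HSPA9, HSPD1 and HSPE1 are made in the cytosol from nuclear genes and imported into the mitochondrial matrix. LARP4 belongs to the La-related proteins and is known to bind poly(A) and the poly(A)-binding protein and to stabilise mRNAs, and the series names nuclear-encoded mitochondrial mRNAs as its interest.

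Some of the genes carry a stress-response element in their DNA, which the choice of windows did not use. Heat shock factor binds repeats of the unit GAA in alternating direction, and the ER stress response acts through a CCAAT box at a fixed distance from CCACG. In the RefSeq start windows (GRCh38.p14), all 7 genes were matched, with 11 windows. The heat shock element searched was 3 units in a row, TTC, GAA and TTC, with 2 free bases between neighbours, on both strands and before the start site only. It was present in 4 of the 11 windows, against 0.441% of 35116 windows of the same length, and in 4 of the 7 genes, against 0.557% of 27305 genes. The ER stress element, CCAAT and CCACG with 9 free bases between, was searched in the same way and was present in 1 of the 11 windows, that of HSPA5, against 0.0740% of all windows. HSPE1 and HSPA9 had neither. The stretches show the elements where they were found, 1 for each gene, with the motif in capitals. They are DNA upstream of a start and are not the RNA bound by LARP4, on which they have no bearing.
HSPA8, chr11:123062167-123062203, minus strand: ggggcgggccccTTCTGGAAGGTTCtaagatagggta
HSP90AA1, chr14:102087108-102087144, minus strand: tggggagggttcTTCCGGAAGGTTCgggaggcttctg
HSP90AB1, chr6:44247819-44247855, plus strand: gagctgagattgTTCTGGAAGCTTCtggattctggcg
HSPD1, chr2:197500061-197500090, minus strand: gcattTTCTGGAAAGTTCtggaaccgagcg
HSPA5, chr9:125241379-125241421, minus strand: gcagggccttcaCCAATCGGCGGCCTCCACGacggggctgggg
The HSPA8 motif ended 43 bases before its start site and the HSPA5 motif 48 bases before. In HSPD1 the motif overlapped a match on the opposite strand. HSP90AA1, HSPD1 and HSP90AB1 have several listed starts, and the motif lay at the second of 2, the second of 2 and the third of 3. A further match, not printed, lay 218 to 230 bases before the start in HSPA8 and 153 to 165 bases before it in HSP90AB1. No match says only that these letters are not in the searched window.

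Enriched LARP4 clusters on the chaperone mRNAs lay mainly near the 3′ end, a position also common in the loci compared below. HSPA8 and HSPA9 had none, and the highest fold differed from gene to gene. Enriched means a log2 fold over input of at least 3 (8-fold) with a −log10 p of at least 3, both as the authors gave them. Of the chaperone clusters, 8 of 91 in replicate 1 were enriched (8.79%, Wilson 95% interval 4.52 to 16.4), against 5.01% of all clusters in that list. In replicate 2 the count was 10 of 107 (9.35%, 5.16 to 16.4), against 5.50%. The background lies inside both intervals, so the share of enriched clusters in these genes was not distinguishable from it. The intervals treat clusters as independent and cover counting error only, and the reads behind a cluster are unknown.

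The median log2 fold of all chaperone clusters was 1.39 in replicate 1 and 1.48 in replicate 2, beside 1.28 and 1.30 over the whole lists. A fold of 2 or more was reached by 56 of 91 and 71 of 107 clusters, which are 61.5% and 66.4%, against 59.4% and 60.9% of all clusters. No chaperone window held a cluster on the opposite strand in either replicate. A series-wide region was present in 4 of the 7 genes (HSP90AA1, HSP90AB1, HSPA5 and HSPE1), with 1 in each, against 20.9% of the 5576 loci with a like number of clusters. A locus here is a run of clusters on 1 strand without a gap of more than 5 kb, and those compared held 15 to 49 clusters over both replicates, the range of the 7 genes. Unlike the windows, a locus can join neighbouring genes or hold part of 1 gene, so its 3′ end need not be that of a gene. The loci include 6 of the genes and the 3′ part of HSPA9, whose 3 clusters nearest the 5′ end form a locus of their own.

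**Figure D1:**
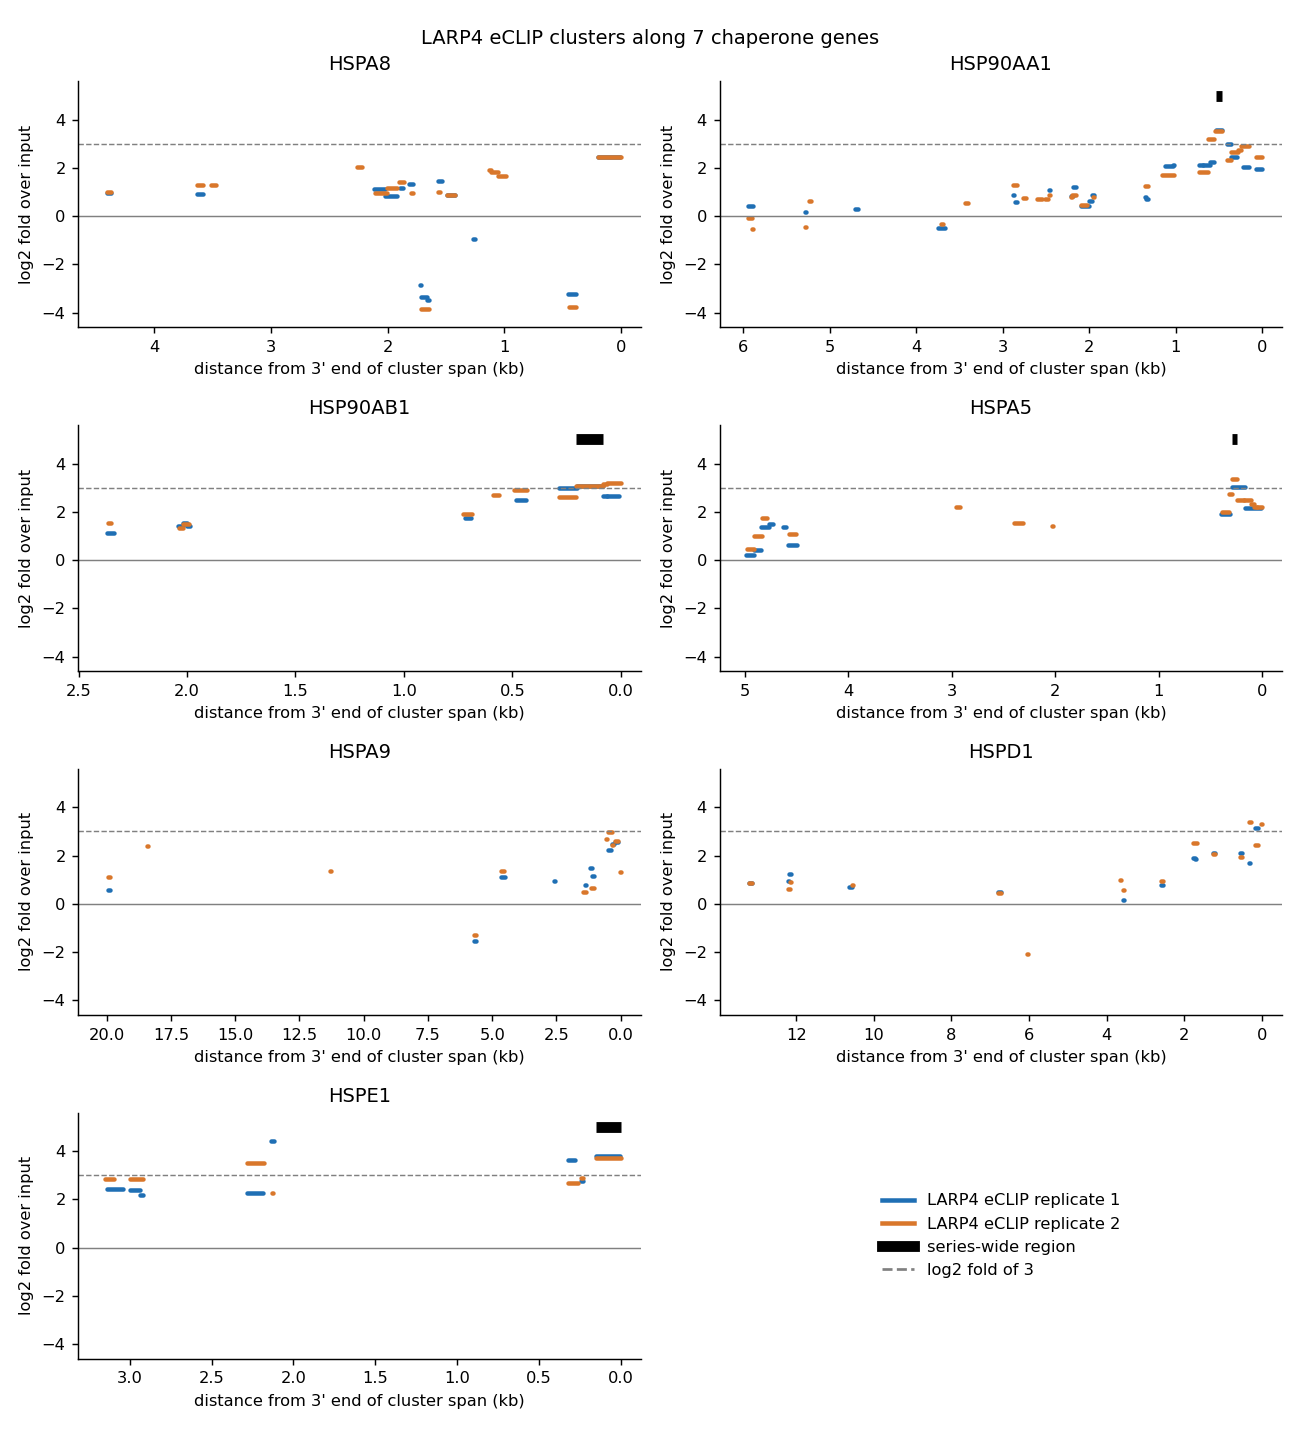
Each panel plots the log2 fold over input of every cluster (line length is cluster width) against the distance in kb from the 3′ end of the cluster span, with the 5′ end at left; blue is replicate 1, orange replicate 2, and black bars are series-wide regions drawn at a fixed height. The 4 black bars all lie within the last kb, and HSPA8 has clusters near −3 to −4 in both replicates.

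HSPE1 had the highest folds of the 7 genes. It encodes HSP10, the lid of the mitochondrial folding chamber. Its window, chr2:198364700-198368200 on the plus strand, held 8 clusters in replicate 1 and 7 in replicate 2, and each of them was above 4-fold, with lowest log2 folds of 2.18 and 2.26. The median was 2.61 in replicate 1 and 2.86 in replicate 2, higher than 93.5% and 94.6% of the loci with a like number of clusters. Enriched clusters numbered 3 of 8 and 2 of 7.

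The series-wide region of HSPE1 spanned 152 bases at chr2:198367933-198368084, at the very 3′ end of the cluster span. On the log2 scale it stood at 3.81 and 3.70, a mean of 3.76 ± 0.08 (SD, n = 2), or 13.5-fold. All 4 series-wide regions of the chaperone genes overlapped an enriched cluster in both replicates, and how the list was built was not stated. The SDs of the regions may therefore reflect how they were picked and need not hold for other clusters. The replicates differed more at 2 internal sites: a replicate 1 cluster of 16 bases at chr2:198365948-198365963 reached 4.43, while the replicate 2 cluster on it had 2.26, and a replicate 2 cluster of 105 bases at chr2:198365799-198365903 reached 3.53 against 2.27. With 44 bases at chr2:198367763-198367806, replicate 1 had 3.64 and replicate 2 had 2.67. These 3 sites therefore passed the threshold in 1 replicate each.

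HSPD1 (HSP60), the subunit that forms the walls of the same chamber, is transcribed from the opposite strand away from HSPE1, and its profile was different. Its window, chr2:198351300-198364800, held 14 and 20 clusters with medians of 1.47 and 0.93 on the log2 scale for replicates 1 and 2. Enriched clusters were found only in the 3′-most kb, 1 in replicate 1 and 2 in replicate 2, and none recurred as enriched at the same position. A cluster of 69 bases at chr2:198351474-198351542 had 3.15 in replicate 1 and 2.42 on its partner. In replicate 2, a cluster of 34 bases at chr2:198351361-198351394 with 3.33 had no partner, and a cluster of 48 bases at chr2:198351653-198351700 had 3.38 against 1.70.

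No series-wide region lay in HSPD1. Towards its 5′ end folds were low, at 0.87 and 0.86 in the clusters nearest the start. A replicate 2 cluster of 25 bases at chr2:198357385-198357409 lay at −2.08, with no partner in replicate 1. Between the 5′-most clusters of HSPD1 and HSPE1 lay 346 bases without a cluster on either strand, so that the clusters of this divergent gene pair were separated by strand and by position.

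HSPA9, the mitochondrial HSP70 that pulls incoming proteins through the inner membrane, had no enriched cluster in either replicate. Counts of 0 of 12 and 0 of 13 clusters allow a share of up to 25% and 23.1%, taking 3 counts as the limit. The window, chr5:137890500-137911400 on the minus strand, had medians of 1.13 and 1.37 on the log2 scale for replicates 1 and 2. Its highest clusters were near the 3′ end, at 2.55 in replicate 1 (chr5:137891216-137891324) and 2.98 in replicate 2 (chr5:137891451-137891596), the latter just under the threshold, with 2.23 on its replicate 1 partner. Near the 5′ end, a replicate 2 cluster at chr5:137909477-137909511 had 2.40 and no partner. A cluster at chr5:137896737-137896793 was below input in both replicates, at −1.52 and −1.30.

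HSP90AB1 encodes the constitutive cytosolic HSP90, and its folds were higher towards the 3′ end. In its window, chr6:44214800-44221700 on the plus strand, each replicate had 10 clusters, all of them above 2-fold. The 5′-most cluster had a log2 fold of 1.11 in replicate 1 and 1.52 in replicate 2. The median was 2.11 and 2.64. The series-wide region of 122 bases at chr6:44221324-44221445 had 3.07 and 3.05, a mean of 3.06 ± 0.02 (SD, n = 2), or 8.34-fold.

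The last 3 clusters of HSP90AB1 in each replicate had a −log10 p at the upper limit of 400, which 0.293% and 0.274% of all clusters reached. No other chaperone cluster was at that limit, although HSPE1 had larger folds. In replicate 2 the clusters downstream of the region, at chr6:44221446-44221465 and chr6:44221466-44221528, also passed with 3.13 and 3.20. Their replicate 1 partners had 2.67 and 2.66 and did not.

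HSP90AA1, the stress-inducible cytosolic HSP90, had low folds along most of its span and high folds in the last kb. Its window, chr14:102547000-102606100 on the minus strand, held 24 and 25 clusters, with a median log2 fold of 0.98 and 0.87, the lowest mean median of the 7 genes. All clusters lay in the 5.94 kb at the 3′ side, and the 52.7 kb of the window towards the upstream listed start held none. The series-wide region of 67 bases at chr14:102547892-102547958 had 3.55 and 3.52, a mean of 3.54 ± 0.02 (SD, n = 2), or 11.6-fold. The median log2 fold of the last kb was higher than that of the rest, at 0.75 and 0.72, by 1.44 and 1.99.

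A further enriched cluster was present on each side of the HSP90AA1 region, each in 1 replicate. In replicate 1 it was chr14:102547791-102547832, at 3.004 against 2.34 in replicate 2. In replicate 2 it was chr14:102547982-102548059, at 3.21 against 2.24 in replicate 1. The 5′-most clusters had log2 folds of 0.43 in replicate 1 and −0.07 in replicate 2.

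HSPA5, also called BiP, is the HSP70 of the ER lumen. Its window, chr9:127997100-128003700 on the minus strand, held 9 and 15 clusters with a median log2 fold of 1.39 and 2.18, the largest gap between replicates among the 7 medians. Weighted by cluster width, the mean was 1.71 ± 0.18 (SD, n = 2), and all 7 overlapping pairs of clusters were within 1 log2 unit. The series-wide region of 49 bases at chr9:127998805-127998853 had 3.03 in replicate 1 and 3.35 in replicate 2, a mean of 3.19 ± 0.22 (SD, n = 2), or 9.14-fold. In replicate 2 the stretch was divided into shorter clusters, so the replicate 1 cluster of 122 bases overlapped both an enriched and a longer not-enriched partner. At the 5′ end the log2 folds were 0.19 and 0.44.

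HSPA8 encodes HSC70, the constitutive cytosolic HSP70, and is the other gene with no enriched cluster. Counts of 0 of 14 and 0 of 17 allow shares of up to 21.4% and 17.6%. In its window, chr11:122928100-122934000 on the minus strand, the median log2 fold was 0.90 and 1.18. The highest cluster was the 3′-most in both replicates, at chr11:122928412-122928599 in replicate 1 and chr11:122928401-122928595 in replicate 2, with 2.45 in each, or 5.45-fold.

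HSPA8 also held 2 short sites far below input. Clusters at chr11:122928785-122928854 had −3.21 in replicate 1 and −3.75 in replicate 2. At chr11:122930042-122930113, adjoining replicate 1 clusters had −3.46 and −3.33, and the replicate 2 cluster on them had −3.86. These were the only overlapping clusters of the 7 genes at −2 or lower in both replicates, a level reached by 0.571% of overlapping clusters in the whole series. The p of these clusters is 0 on the −log10 scale, as for every negative fold, so depletion was not tested.

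Per RefSeq, HSPA8 contains the snoRNA genes SNORD14C, SNORD14D and SNORD14E, HSPA9 contains SNORD63 and SNORD63B, and HSPD1 contains SNORA105B. The other 4 genes contain none. A snoRNA is a small RNA cut from an intron that guides chemical changes on other RNAs. The 3 host genes were also those with a cluster at a log2 fold of −1 or lower in at least 1 replicate, a level chosen after the values were seen. The match depended on that level. At −2 or lower in both replicates HSPA8 alone was left. Below a log2 fold of 0, HSP90AA1, which contains no snoRNA gene, had 1 cluster in replicate 1 and 4 in replicate 2. HSPD1 reached −1 only through 1 replicate 2 cluster of 25 bases, at −2.08 and without a partner. The share of all genes or loci that reach −1 was not computed, so the match has no background beside it. Whether the low clusters lie on the snoRNAs was not analysed here, because the snoRNA positions are those of another build. Over all chaperone clusters, 7.69% and 7.48% were below input, against 11.6% and 11.2% of the lists.

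**Figure D2:**
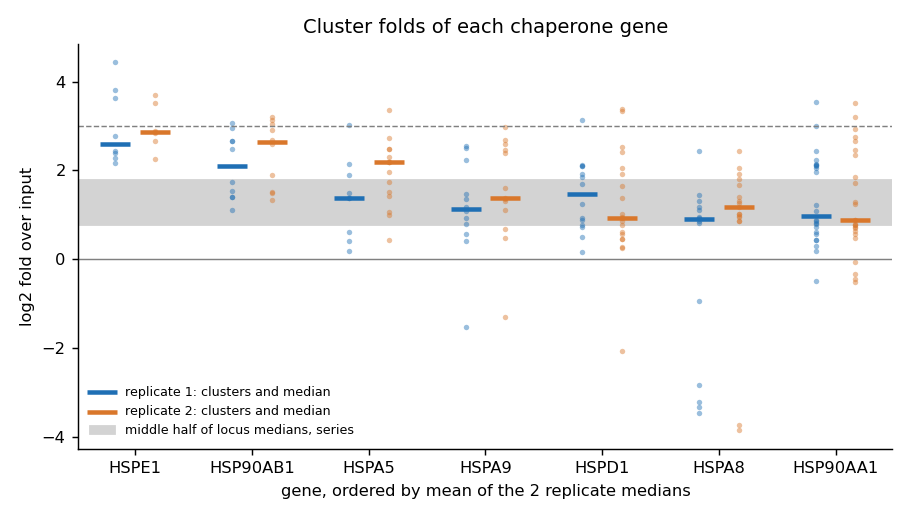
The y axis is the log2 fold over input, with 1 dot per cluster and a bar at the median of each gene in replicate 1 (blue) and replicate 2 (orange); the grey band is the interquartile range of locus medians over loci with 15 to 49 clusters, and the dashed line is a log2 fold of 3. HSPE1 and HSP90AB1 have both medians above the band, and the dots of HSPA8 below −2 are visible in both replicates.

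The genes could be placed in order by the mean of both replicate medians, but only partly beyond their spread. HSPE1 was at 2.73 ± 0.18, HSP90AB1 at 2.37 ± 0.37 and HSPA5 at 1.78 ± 0.56 (SD, n = 2). HSPA9 followed at 1.25 ± 0.17, HSPD1 at 1.20 ± 0.38, HSPA8 at 1.04 ± 0.20 and HSP90AA1 at 0.93 ± 0.08. The replicate values of HSPE1 and HSP90AB1 overlapped, as did those of HSP90AB1 and HSPA5, and so did each neighbouring pair among the lower 4. Both replicates of HSPE1 and of HSP90AB1 were above both replicates of HSPA9, HSPD1, HSPA8 and HSP90AA1. The order was not tested.

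The median hides the height of the 3′ peak. By the highest cluster, HSP90AA1 moved from last to the second place, with log2 folds of 3.55 and 3.52 behind HSPE1 at 4.43 and 3.70. HSPA8 was lowest at 2.45 and 2.45, and HSPA9 next at 2.55 and 2.98. With clusters of a −log10 p of at least 3 or a negative fold alone, the median of HSP90AA1 was 2.11 in place of 0.93, that of HSPD1 2.17 in place of 1.20 and that of HSPA9 2.15 in place of 1.25.

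The series asks about nuclear-encoded mitochondrial mRNAs, and whether the 3 mitochondrial chaperones differed from the other 4 depended on the measure and on HSPE1. Their pooled clusters had a median log2 fold of 1.77 in replicate 1 and 1.49 in replicate 2, against 1.21 and 1.48 for the cytosolic and ER genes. The difference was 0.56 and 0.01, a mean of 0.28 ± 0.39 (SD, n = 2), smaller than its SD. With means weighted by cluster width it was 0.31 ± 0.10. With clusters of a −log10 p of at least 3 or a negative fold alone it was 0.45 ± 0.29. Both were larger than their SD, but these SDs are between replicates and do not measure the spread between genes. The mean medians of the genes ran from 0.93 for HSP90AA1 to 2.73 for HSPE1. The width-weighted and the filtered difference were not computed without HSPE1. Without HSPE1 the difference of medians was −0.0028 and −0.18. Enriched clusters were 4 of 34 and 4 of 40 in the mitochondrial set (11.8% and 10.0%) and 4 of 57 and 6 of 67 in the other (7.02% and 8.96%). Of the 4 mitochondrial ones in each replicate, HSPE1 held 3 in replicate 1 and 2 in replicate 2. Series-wide regions were present in 1 of 3 mitochondrial and 3 of 4 other genes.

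**Figure D3:**
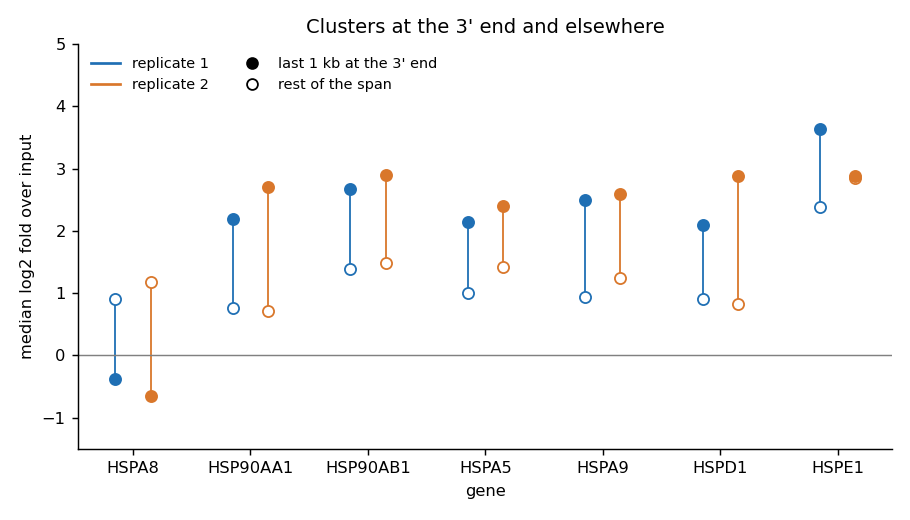
Median log2 fold over input of the clusters in the last kb at the 3′ end of the cluster span (filled) and of all other clusters (open) for each gene, in replicate 1 (blue) and replicate 2 (orange). The filled point is above the open one in both replicates for every gene but HSPA8, and for HSPE1 the replicate 2 points nearly coincide.

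The position along the gene was compared by the distance from the 3′ end of each gene's cluster span, which need not be the annotated transcript end. The median fold was higher in the last kb than in the rest in 6 of 7 genes in each replicate, against 69.1% of 2897 loci in replicate 1 and 70.3% of 3087 in replicate 2. Among the 6, the difference ranged from 1.15 (HSPA5) to 1.56 (HSPA9) in replicate 1 and from 0.04 (HSPE1) to 2.06 (HSPD1) in replicate 2. The median difference over loci was 0.46 and 0.51. The exception was HSPA8, at −1.28 and −1.83, where the last kb held 2 clusters, the highest of the gene and a far lower one.

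The highest cluster lay in the last kb in 6 of 7 genes in replicate 1 and in 7 of 7 in replicate 2. Of the same loci, whose 3′ ends need not be those of genes, 49.5% and 49.2% had it there. HSPE1 in replicate 1 was the exception. Of the enriched clusters, 7 of 8 and 9 of 10 were in that stretch, against 59.8% and 57.9% of the enriched clusters of the same loci. These counts are small, some of the clusters adjoin each other, and the last kb was chosen after the values were seen. Whether the chaperone genes differ from the loci in this was not tested. The last kb held 31.9% and 34.6% of all chaperone clusters and 28.6% and 27.1% of all clusters of those loci. The 2 outside it were the internal HSPE1 sites. Along the span, scaled from 0 at its upstream to 1 at its downstream end, the 4 series-wide regions averaged 0.94, with a range from 0.92 in HSP90AA1 to 0.98 in HSPE1. The HSPE1 region ends where the span of that gene ends, so its value is high by construction. The positions of regions in the other loci were not computed.

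**Figure D4:**
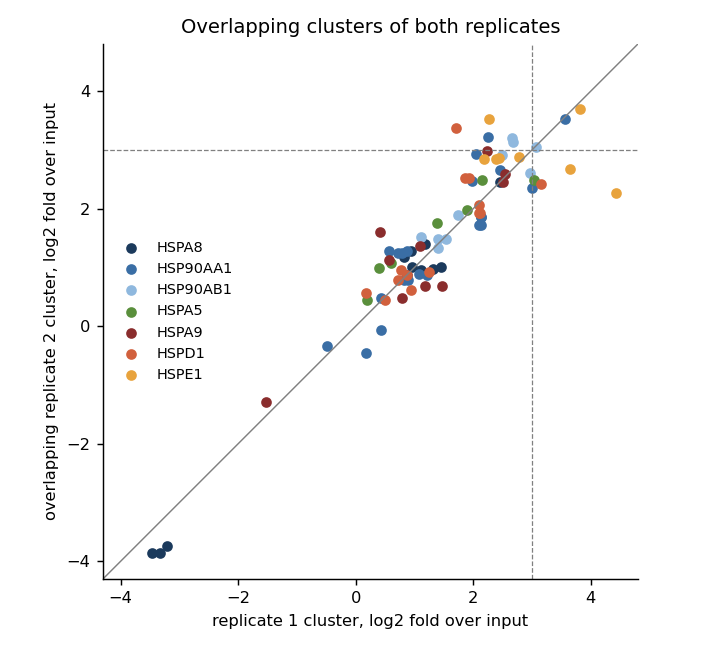
Each point is a replicate 1 cluster of a chaperone gene (x, log2 fold over input) and the replicate 2 cluster with the longest overlap on it (y), coloured by gene; the diagonal marks equal values and dashed lines a log2 fold of 3. Of 83 points, 79 lie within 1 log2 unit of the diagonal, and the HSPE1 points scatter most.

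The replicates were close to each other on most of these genes. Of the chaperone clusters, 91.2% in replicate 1 and 75.7% in replicate 2 overlapped a cluster of the other replicate, against 44.8% and 40.1% of all clusters. At 83 overlapping clusters Pearson's r was 0.93, and the SD of a single value was 0.38, against 0.74 and 0.66 at 77005 overlapping clusters of the series. These are descriptions across clusters that share libraries and genes. The SD was smallest in HSP90AB1, at 0.21, and largest in HSPE1, at 0.76. Within HSPE1, r over 8 pairs was −0.27, and within the other genes it ranged from 0.79 in HSPD1 to 0.99 in HSPA8. The HSPA8 pairs ran from −3.46 to 2.45 in replicate 1, and r without those far below input was not computed. The same pairs also enter the r of 0.93. A replicate 2 cluster could serve in more than 1 pair.

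At the threshold the agreement was lower. Of the 8 clusters enriched in replicate 1, all had a partner and 3 of the partners were enriched, against 66.7% in the series. Of the 9 with a partner in replicate 2, 4 had an enriched one, against 56.9%. The 11 enriched clusters whose partner was missing or not enriched had a median log2 fold of 3.21 and a highest value of 4.43. At a log2 fold of at least 4, 1 cluster was left in replicate 1 and 0 in replicate 2. The share of all clusters at that level was not computed.

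Several of these genes have many copies elsewhere in the genome. By symbol, RefSeq lists 28 pseudogenes of HSPE1, 22 of HSPD1, 20 of HSPA8, 6 of HSP90AB1, 5 of HSP90AA1, 2 of HSPA9 and 1 of HSPA5. How reads matching several copies were treated was not stated in the labels, so the folds of the first 3 genes are uncertain to that extent, and the part of the copies in them was not tested.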

How the data were processed

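LARP4 eCLIP replicates 1 and 2 were analysed, and the 2 inputs entered through the deposited folds. The submitters' processing notes name the build hg19 and, among the tools, STAR 2.7.6a, UMI-tools 1.0.0, SAMtools 1.6 and cutadapt 1.14. The caller of the clusters, the scaling for depth and the way the series-wide list was built were not stated. For each interval the authors deposited a −log10 p against input, with a ceiling of 400, and a log2 fold against input. The columns carry no names, and both meanings were inferred from their ranges. Negative folds always have a −log10 p of 0.

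Starts were converted to 1-based positions. Clusters of both replicates were matched by at least 1 shared base on 1 strand, taking the longest overlap. Means and SDs are over the 2 replicates, and the authors' p-values served only as a filter. All 7 genes are named. The rule for positions was each gene's series-wide regions and overlapping clusters at −2 or lower in both replicates. Other clusters, the last kb, the motifs and the loci were chosen after their values were seen. The members and lists were chosen with earlier results of these data known. No annotation or genome of hg19 was used, so exons, UTRs, bound sequences and other chaperone genes are not described. Overlap and distance functions were tested on simulated data. Python 3.11.15, numpy 2.4.6, pandas 2.3.3 and matplotlib 3.10.9 were used.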

Additional observations from a re-analysis of the deposited data

How the results depend on the processing

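The threshold decided the counts. With a log2 fold of 4 or more required, enriched clusters were 1 in replicate 1 and 0 in replicate 2, series-wide regions 0 and clusters enriched in both replicates 0. With 1 or more required, 48 and 57 clusters passed. The shares of all clusters and regions that pass at these changed thresholds were not computed, so the counts have no background beside them. A −log10 p of at least 5, clusters wholly inside the windows and both strands left 8 and 10. With any partner counted, 4 clusters in place of 3 were enriched in both. The mean position of regions was 0.91 along the whole windows and 0.94 to 0.95 with 1 replicate's span. Weighted by width, the mean log2 fold was 0.69 for HSPA8, 1.65 for HSP90AA1, 3.11 for HSPE1 and 1.46 for HSPA9. With a −log10 p of at least 3 or a negative fold, the median was 2.11 for HSP90AA1, 2.17 for HSPD1 and 2.15 for HSPA9. The cause of these moves was not tested. With the last 2000 bases in place of the last kb, HSPA8 was also higher at the 3′ end in replicate 2, and with the last 500 bases the counts were 6 and 6; these distances were chosen after seeing the data. The mean difference between mitochondrial and other chaperones turned to −0.092 with HSPE1 left out, an alternative added after seeing the data, and no other alternative turned a sign. No paired analysis was possible because the inputs have no values of their own here. Read depth is unknown, which limits every single fold.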
